A study of Mus musculus with 6 samples.

Results

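The 39 genes described here encode the machinery by which a cell divides its chromosomes: the kinases and cyclins that start mitosis, the kinetochore and checkpoint proteins, the spindle motors and microtubule binders, and the proteins of cytokinesis. They were taken as a list of gene symbols that used no measured value, and all 39 were found among the 17193 Ensembl gene identifiers listed for every library. Each of the 39 had a mean of at least 1 FPKM, a count of fragments scaled to the length of the transcript and the size of the library, and all were therefore among the 12255 genes tested. RNA was sequenced from astrocytes of wild type C57BL/6 mice aged 3 months, with 3 libraries from mice labelled Mock and 3 from mice labelled Quinpirole, an agonist of the D2 class of dopamine receptors. According to the study's methods, dissociated brain cells were passed through Percoll and selected with microbeads against ACSA-2, an antigen encoded by *Atp1b2*. The labels give neither the dose and duration of quinpirole nor whether each library came from a separate animal, so the p-values measure only the spread between libraries. In RNA from a mixed preparation, more dividing cells and more of these transcripts per cell cannot be told apart.

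Entry into mitosis is driven by CDK1 bound to a B-type cyclin, after which Aurora and Polo-like kinases build the spindle and the kinetochores attach chromosomes to it. The spindle checkpoint holds the anaphase-promoting complex until every chromosome is attached, and the complex, switched on by CDC20, then destroys cyclin B and securin so that the sister chromatids part and the central spindle organizes cytokinesis. Most of these genes are transcribed in late S, G2 and M phase and are silenced in resting cells, so their transcripts are widely used as markers of proliferation, and most astrocytes of the adult brain are regarded as resting.

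The transcripts were present in every library at moderate levels and 14 of the 39 rose after quinpirole, whereas none fell. The mean over the 6 libraries ran from 3.32 FPKM for *Ttk* to 44.9 FPKM for *Cdc20*, with a median of 15.0 FPKM over the 39 genes, and these means lay between the percentiles 41.0 and 90.0 of the means of all genes listed. With limma on log2(FPKM + 1), 14 of 39 (35.9%) had an adjusted p under 0.05 and were higher after quinpirole, beside 5.74% of all genes tested, and 10.9% of all genes were called in either direction. The 14 were *Cdk1*, *Ccnb1*, *Ccnb2*, *Cdc20*, *Ube2c*, *Cdca3*, *Birc5*, *Cdca8*, *Mad2l1*, *Nuf2*, *Spc25*, *Cenpa*, *Kif2c* and *Nusap1*. No gene of the 39 was called lower by limma, and none with a lower mean had an unadjusted p under 0.05. The changes were small, with log2 fold changes between -0.15 for *Mki67* and 0.43 for *Cdk1* and a median of 0.20, beside 0.02 over all genes tested. The mean was higher after quinpirole for 36 of the 39 genes, beside 53.8% of all genes. For 26 of the 39, every quinpirole library lay above every mock library, which held for 20.0% of all genes, and for none did every quinpirole library lie below, which held for 16.9% of all genes.

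Summed over the 39 genes, the level was 622, 597 and 586 FPKM in mock libraries 1 to 3 and 710, 693 and 688 FPKM in quinpirole libraries 1 to 3. The groups did not overlap, and their means, 602 ± 18.2 and 697 ± 11.7 FPKM (SD, n = 3 each), had a ratio of 1.16. FPKM summed over all genes did not overlap either, at 401769 to 413730 in the mock and 425244 to 437164 in the quinpirole libraries. The sums are not corrected for this. In quinpirole libraries 1 to 3, 36, 33 and 31 of the 39 exceeded their own mean over all 6 libraries, compared with 9, 5 and 1 in mock libraries 1 to 3. These counts follow from the difference between the groups and do not show whether the genes moved together within a library. The median deviation from that mean, on the log2 scale, ranged from -0.135 (mock library 3) to 0.134 (quinpirole library 1). Over all genes tested it ranged from -0.012 to 0.009. The calls, unlike the direction, depended on single libraries. When limma was fitted again without mock library 1, mock library 2, quinpirole library 1 or quinpirole library 2, 0 of the 39 genes were called, although 26, 18, 19 and 20 of them, respectively, had an unadjusted p under 0.05. In those 4 fits, only 6, 3, 11 and 25 genes were called among all genes. An unadjusted p under 0.05 was also frequent there, in 3051 of 12247, 2883 of 12253, 3378 of 12265 and 2966 of 12265 genes. Without mock library 3, 11 of the 39 were called, and without quinpirole library 3 only *Cdc20*, *Cdca3* and *Cenpa*, that is, 3. Between 35 and 36 of the 39 had a higher mean in each of the 6 fits, which share most of their libraries.

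**Figure D1:**
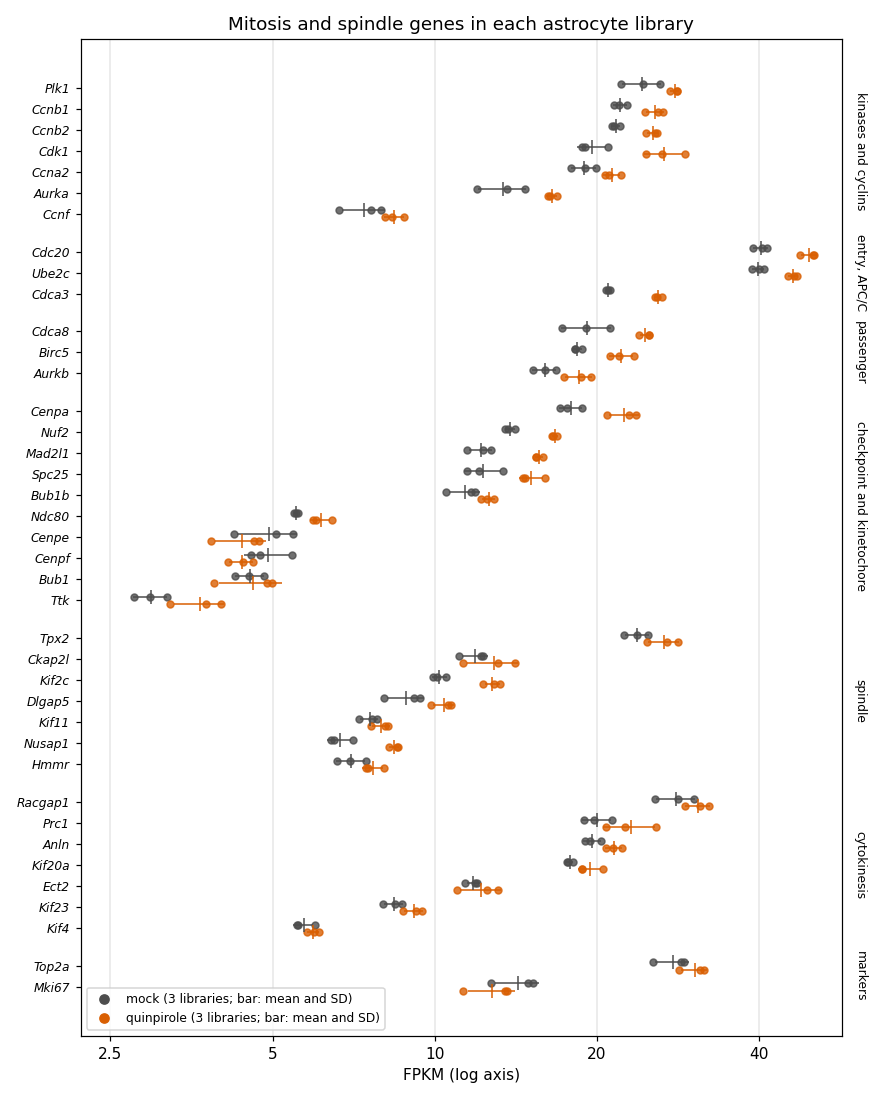
FPKM (log axis) of the 39 mitosis and spindle genes in each of the 3 mock and 3 quinpirole libraries, grouped by role and ordered by level, with points for libraries and bars for the mean and SD. The 7 kinases and cyclins lie higher after quinpirole without overlap, as do 20.0% of all genes, whereas *Mki67*, *Cenpe* and *Cenpf* have lower means and overlap.

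Genes of this kind share promoter elements, so the letters around their start sites were read beside the measurements. RefSeq promoter windows on GRCm38.p6, from 250 bases before to 50 bases after each start site, were found for 34 of the 39 genes, in 36 windows because *Ect2* and *Prc1* have a second start, and none was found for *Aurkb*, *Ccna2*, *Dlgap5*, *Kif20a* and *Tpx2*. Each window was searched on both strands for TTTGAA, the core of the cell cycle gene homology region (CHR) through which the DREAM complex is known to act, and for CCAAT, the box known to be bound by the factor NF-Y. The CHR was in 29 of the 36 windows (80.6%), compared with 17.9% of all 32851 windows, and the CCAAT box was in 29 (80.6%), compared with 37.4%. Both were in 26 (72.2%), compared with 6.95%, and 1 CHR overlapped a CCAAT box. A match is a description of letters and not a binding site. The last 120 bases before the start site are given for 7 genes, 5′ to 3′ on the strand of the gene and in lower case, with CHR and CCAAT matches of either strand in capitals. The first 4 are from genes that rose, *Cdk1* (chr10:69352913-69353032, minus strand), *Cdc20* (chr4:118437344-118437463, minus), *Ube2c* (chr2:164769809-164769928, plus) and *Ccnb2* (chr9:70421555-70421674, minus), and show stretches with CCAAT boxes and, except in *Ccnb2*, a CHR. The others are the proliferation markers *Top2a* (chr11:99024190-99024309, minus) and *Mki67* (chr7:135716380-135716499, minus), which were not called, and *Nuf2* (chr1:169531465-169531584, minus), which rose and has neither element in its whole window.
Cdk1: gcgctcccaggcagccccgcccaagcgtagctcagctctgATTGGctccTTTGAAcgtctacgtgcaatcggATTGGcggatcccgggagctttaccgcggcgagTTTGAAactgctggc
Cdc20: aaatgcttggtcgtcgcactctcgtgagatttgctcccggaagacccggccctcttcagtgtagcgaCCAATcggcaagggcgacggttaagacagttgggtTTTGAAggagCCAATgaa
Ube2c: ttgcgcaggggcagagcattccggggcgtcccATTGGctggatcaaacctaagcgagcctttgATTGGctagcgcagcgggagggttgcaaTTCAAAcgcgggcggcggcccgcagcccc
Ccnb2: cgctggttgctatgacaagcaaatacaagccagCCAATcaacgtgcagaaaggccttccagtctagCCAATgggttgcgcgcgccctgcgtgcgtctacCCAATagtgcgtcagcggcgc
Top2a: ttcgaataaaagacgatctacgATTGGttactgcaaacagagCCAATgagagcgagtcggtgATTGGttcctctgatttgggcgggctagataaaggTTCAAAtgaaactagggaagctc
Mki67: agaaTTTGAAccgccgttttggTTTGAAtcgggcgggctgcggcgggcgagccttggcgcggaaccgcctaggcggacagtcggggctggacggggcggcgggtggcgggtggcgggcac
Nuf2: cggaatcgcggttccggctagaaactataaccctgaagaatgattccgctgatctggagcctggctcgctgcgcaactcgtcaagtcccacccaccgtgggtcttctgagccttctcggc

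With the start site as position 0, the CHR of these windows lay mostly just after it, in the first 25 bases in 33.3% of windows compared with 1.31% of all windows, so several do not appear in the stretch printed. *Ccnb2*, for example, had CCAAT boxes at positions -87, -54 and -21 and a CHR at position 4. In *Cdk1* the CCAAT boxes at positions -80 and -48 were followed by a CHR at -15, in *Ube2c* those at -88 and -57 by a CHR at -29, and in *Cdc20* a box at -53 by a CHR at -18 and a further box at -8. Of 41 pairs of neighbouring CCAAT boxes, 10 were 31 to 36 bases apart. CCAAT boxes were most frequent from -75 to -50 and from -25 to 0, each in 38.9% of the windows of these genes, compared with 6.99% and 4.05% of all windows. Among the 14 genes that rose, 9 had a CHR, 9 a CCAAT box and 8 both, and *Birc5*, *Mad2l1*, *Nuf2* and *Nusap1* had neither. Among the 20 other genes with a window, 18 had a CHR, 18 a CCAAT box and 16 both, and all 20 had at least 1 of them.

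**Figure D2:**
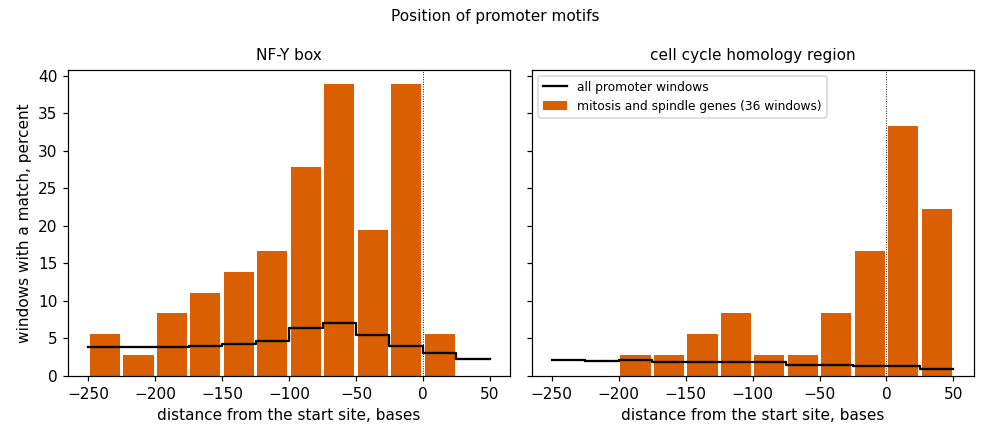
Percentage of promoter windows with a CCAAT box (the NF-Y box, left) or a cell cycle homology region (right) in bins of 25 bases against distance from the start site, for the 36 windows of the mitosis and spindle genes (bars) and all 32851 windows (line). The CCAAT boxes stand before the start site, with 38.9% of windows at -75 to -50, and the homology region stands at or just after it, with 33.3% in the first 25 bases.

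The kinases and cyclins of mitotic entry did not overlap between the groups for any of the 7, and *Cdk1*, *Ccnb1* and *Ccnb2* rose. Of all genes, 20.0% had every quinpirole library above every mock library, and 5.74% were called higher. *Cdk1* (chr10:69335146-69352938, minus strand), the kinase that commits the cell to mitosis, was at 18.8, 19.0 and 21.0 FPKM in mock libraries 1 to 3 and at 26.4, 24.7 and 29.2 FPKM in quinpirole libraries 1 to 3. Its log2 fold change of 0.43 ± 0.07 (SE, adjusted p = 0.0246), a ratio of means of 1.36, was the largest of the 39. *Ccnb1*, which encodes the cyclin B1 partner of CDK1, was at 22.8, 22.0 and 21.5 compared with 26.6, 24.6 and 26.0 FPKM (log2 fold change 0.21 ± 0.05, adjusted p = 0.0353). *Ccnb2*, which encodes cyclin B2, was at 21.5, 21.3 and 22.1 compared with 25.6, 24.7 and 25.9 FPKM (log2 fold change 0.22 ± 0.04, adjusted p = 0.0257). All 3 quinpirole libraries lay above all 3 mock libraries for the kinase and both B-type cyclins, but after correction of each library for transcript length only *Cdk1* remained called, while *Ccnb1* was at 0.19 (adjusted p = 0.0612) and *Ccnb2* at 0.11 (adjusted p = 0.176) on the log2 scale. The other 4 were not called. *Aurka*, which encodes the Aurora kinase of the spindle poles, was at 14.7, 12 and 13.6 compared with 16.9, 16.4 and 16.2 FPKM, and lay just outside the threshold (adjusted p = 0.05, above it before rounding). *Plk1*, which encodes the Polo-like kinase of centrosomes and kinetochores, was at 26.2, 24.4 and 22.2 compared with 28.2, 28.2 and 27.3 FPKM (adjusted p = 0.079). *Ccna2*, which encodes the cyclin of S phase and early mitosis, was at 19.9, 17.9 and 19.0 compared with 20.7, 22.2 and 21.1 FPKM (adjusted p = 0.0838). *Ccnf*, which encodes the cyclin F subunit of an SCF ubiquitin ligase, was at 7.95, 7.61 and 6.65 compared with 8.78, 8.08 and 8.33 FPKM (adjusted p = 0.168). In these 4 the mock libraries differed more among themselves than in *Ccnb2*, and mock library 2 or 3 was the lowest.

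The 3 genes that act on ubiquitin-dependent destruction around mitosis all rose (beside 5.74% of all genes), and they include the most abundant of the 39. *Cdc20* (chr4:118432901-118437352, minus strand), which encodes the activator of the anaphase-promoting complex, was at 41.4, 39 and 40.6 FPKM in the mock libraries and at 50.7, 50.3 and 47.7 FPKM in the quinpirole libraries (log2 fold change 0.29 ± 0.04, adjusted p = 0.0225). *Ube2c*, which encodes the E2 enzyme of that complex, was at 40.9, 40.0 and 38.9 compared with 45.2, 46.4 and 47.1 FPKM (log2 fold change 0.21 ± 0.04, adjusted p = 0.0258). *Cdca3*, also called trigger of mitotic entry 1, was at 21.2, 20.8 and 21.0 compared with 25.9, 25.7 and 26.4 FPKM (log2 fold change 0.29 ± 0.04, adjusted p = 0.0225). The libraries of a group lay close together for *Cdca3*, with an SD of 0.221 FPKM in the mock group and 0.327 FPKM in the quinpirole group, and this gene had the smallest p of the 39. After the length correction *Cdca3* was still called, whereas *Cdc20* was at 0.20 (adjusted p = 0.0543) and *Ube2c* at 0.13 (adjusted p = 0.108) on the log2 scale.

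The chromosomal passenger complex, which corrects wrong attachments and guides cytokinesis, was represented by 3 genes that did not overlap between the groups, and 2 of them rose. Over all genes, 20.0% lay higher in every quinpirole library than in every mock library, and 5.74% were called higher. *Birc5*, which encodes survivin, was at 18.2, 18.8 and 18.2 FPKM in the mock libraries and at 23.4, 22.0 and 21.2 FPKM in the quinpirole libraries (log2 fold change 0.26 ± 0.05, adjusted p = 0.0277). *Cdca8*, which encodes borealin, was at 21.2, 17.2 and 19.1 compared with 25.0, 25.0 and 24.0 FPKM (log2 fold change 0.35 ± 0.07, adjusted p = 0.0322). *Aurkb*, which encodes the kinase of the complex, was at 16.8, 16.0 and 15.2 compared with 19.5, 18.7 and 17.4 FPKM and was not called (adjusted p = 0.0698). After the length correction *Cdca8* was still called, and *Birc5* was not (adjusted p = 0.0573).

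Of the 10 checkpoint and kinetochore genes, 4 rose (40.0%, beside 5.74% of all genes), and this group also held 2 of the 3 genes with a lower mean. *Mad2l1*, which encodes the MAD2 protein that restrains CDC20, was at 11.5, 12.3 and 12.7 FPKM in the mock libraries and at 15.4, 15.9 and 15.4 FPKM in the quinpirole libraries (log2 fold change 0.33 ± 0.05, adjusted p = 0.0225). *Nuf2* and *Spc25* encode subunits of the NDC80 complex, which holds microtubules at the kinetochore. *Nuf2* was at 14.1, 13.5 and 13.7 compared with 16.5, 16.9 and 16.6 FPKM (log2 fold change 0.26 ± 0.04, adjusted p = 0.024). *Spc25* was at 13.4, 12.1 and 11.5 compared with 16.0, 14.7 and 14.6 FPKM (log2 fold change 0.28 ± 0.07, adjusted p = 0.0429), the value just inside the threshold among the 39. *Cenpa*, which encodes the histone variant that marks centromeres, was at 17.6, 17.1 and 18.8 compared with 23.0, 23.7 and 20.9 FPKM (log2 fold change 0.32 ± 0.06, adjusted p = 0.0274). For each of these 4 the lowest quinpirole library lay above the highest mock library, and all but *Spc25* (adjusted p = 0.105) were still called after the length correction. The other 6 were not called. *Ndc80*, which encodes the subunit that gives the complex its name, was at 5.48, 5.58 and 5.53 compared with 6.44, 6.03 and 5.95 FPKM (adjusted p = 0.162). *Bub1b*, which encodes the checkpoint protein BUBR1, was at 11.9, 11.7 and 10.5 compared with 12.9, 12.5 and 12.2 FPKM (adjusted p = 0.16). *Ttk*, which encodes the kinase MPS1 that starts checkpoint signalling, was at 3.19, 2.96 and 2.76 compared with 4.01, 3.76 and 3.23 FPKM (adjusted p = 0.111). These 3 did not overlap between the groups either, so that 7 of the 10 lay higher in every quinpirole library, beside 20.0% of all genes. The remaining 3 overlapped. *Bub1*, which encodes a checkpoint kinase, was at 4.82, 4.26 and 4.53 compared with 4.88, 4.99 and 3.89 FPKM (adjusted p = 0.961). *Cenpe*, which encodes a kinesin of the kinetochore, was at 5.45, 5.08 and 4.24 compared with 4.71, 3.84 and 4.61 FPKM (adjusted p = 0.396). *Cenpf*, which encodes a large kinetochore protein, was at 5.44, 4.73 and 4.55 compared with 4.40, 4.14 and 4.60 FPKM (adjusted p = 0.274).

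Spindle motors and microtubule binders rose in 2 of 7 cases (28.6%, beside 5.74% of all genes). *Kif2c*, which encodes the microtubule-depolymerizing kinesin MCAK, was at 10.1, 10.5 and 9.91 FPKM in the mock libraries and at 13.2, 12.3 and 12.9 FPKM in the quinpirole libraries (log2 fold change 0.31 ± 0.05, adjusted p = 0.0246). *Nusap1*, which encodes a protein that bundles spindle microtubules, was at 6.43, 7.05 and 6.49 compared with 8.56, 8.22 and 8.50 FPKM (log2 fold change 0.30 ± 0.06, adjusted p = 0.0259). Of the 5 that were not called, *Dlgap5*, which encodes the spindle protein HURP, was the only one whose groups did not overlap, at 9.15, 9.38 and 8.04 compared with 10.7, 10.6 and 9.86 FPKM (adjusted p = 0.0831). With it, 3 of the 7 lay higher in every quinpirole library, beside 20.0% of all genes. *Tpx2*, which encodes the activator of Aurora A on the spindle, was at 24.9, 23.8 and 22.5 compared with 28.3, 27.0 and 24.8 FPKM (adjusted p = 0.123). *Ckap2l*, which encodes a spindle protein of neural progenitors, was at 12.2, 12.3 and 11.1 compared with 14.1, 13.1 and 11.3 FPKM (adjusted p = 0.433). In both genes quinpirole library 3 was the one that fell among the mock values. *Hmmr*, which encodes a hyaluronan receptor that also binds the spindle, was at 6.95, 7.45 and 6.59 compared with 7.45, 7.52 and 8.06 FPKM (adjusted p = 0.236). *Kif11*, which encodes the motor that pushes the spindle poles apart, was at 7.81, 7.65 and 7.24 compared with 8.18, 7.62 and 8.08 FPKM (adjusted p = 0.457).

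None of the 7 genes of the central spindle and cytokinesis was called. The mean of each was higher after quinpirole, beside 53.8% of all genes. The unadjusted p of 3 was under 0.05, beside 3839 of all 12255 genes. *Anln*, which encodes the actin-binding protein anillin of the contractile ring, was at 20.4, 19.4 and 19.0 FPKM in the mock libraries and at 22.3, 21.4 and 20.8 FPKM in the quinpirole libraries (adjusted p = 0.116). *Kif20a*, which encodes a kinesin of the central spindle, was at 17.6, 17.7 and 18.1 compared with 20.5, 18.8 and 18.8 FPKM (adjusted p = 0.151). *Prc1*, which encodes the protein that bundles antiparallel microtubules of the central spindle, was at 21.3, 18.9 and 19.8 compared with 20.8, 25.8 and 22.6 FPKM (adjusted p = 0.15), and its quinpirole library 1 lay below mock library 1. *Racgap1*, *Kif23* and *Ect2* encode the centralspindlin subunits and the exchange factor that they recruit to activate RhoA. *Racgap1* was at 30.3, 28.3 and 25.6 compared with 32.3, 31.1 and 29.1 FPKM (adjusted p = 0.231). *Kif23* was at 8.70, 8.01 and 8.45 compared with 9.47, 9.23 and 8.73 FPKM (adjusted p = 0.216). *Ect2* was at 12, 11.9 and 11.4 compared with 12.5, 11.0 and 13.1 FPKM (adjusted p = 0.663). Of these 3 only *Kif23* had groups that did not overlap. Among all 7 genes of this group, 3 lay higher in every quinpirole library, beside 20.0% of all genes. *Kif4*, which encodes a chromosome-bound kinesin that also acts at the midzone, was at 5.56, 5.58 and 5.99 compared with 5.79, 5.96 and 6.09 FPKM (adjusted p = 0.583).

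The 2 genes most often used as proliferation markers were not called and differed in direction. *Mki67* (chr7:135689784-135716361, minus strand), which encodes the Ki-67 protein that coats mitotic chromosomes, was at 15.2, 14.9 and 12.7 FPKM in the mock libraries and at 13.5, 11.3 and 13.6 FPKM in the quinpirole libraries (log2 fold change -0.15 ± 0.09, adjusted p = 0.314). *Top2a* (chr11:98992943-99024189, minus strand), which encodes the topoisomerase that untangles sister chromatids, was at 28.7, 29.0 and 25.4 compared with 31.1, 28.4 and 31.6 FPKM (log2 fold change 0.13 ± 0.07, adjusted p = 0.211). The groups overlapped for both genes, in *Top2a* through quinpirole library 2, which lay within the range of the mock libraries. Whether the changes of these genes differed from that of *Cdk1* was not tested.

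**Figure D3:**
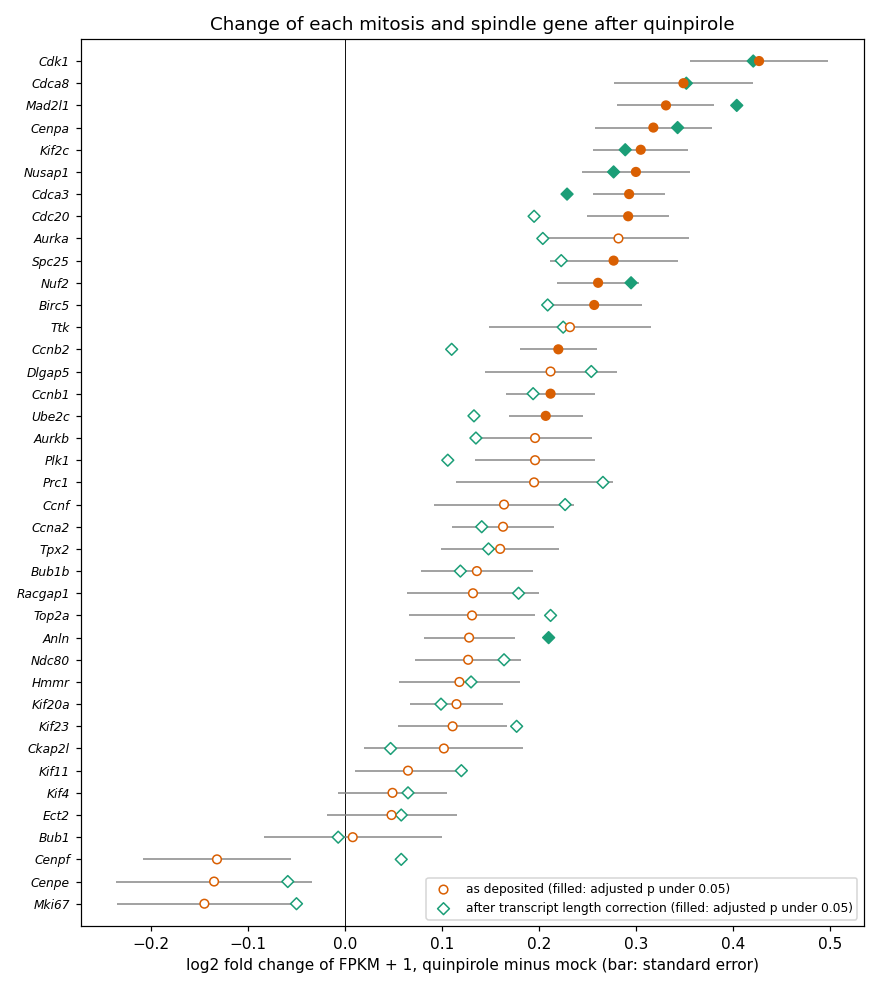
log2 fold change of FPKM + 1, quinpirole minus mock, of the 39 genes with its standard error (circles and bars), and after correction for transcript length (diamonds), with filled symbols for an adjusted p under 0.05. The 14 filled circles lie between 0.21 and 0.43, and *Cenpf*, *Cenpe* and *Mki67* are the only genes whose circles lie below 0.

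The size of the change was related to exonic length, that is, the joined exons of all transcripts of a gene, as it was over all genes. Across the 39 genes, Spearman's rho between exonic length and log2 fold change was -0.42, given as a description because genes share the same libraries. Of the 13 shortest (1531 to 4217 nucleotides), 8 were called (61.5%, beside 9.43% of all genes of those lengths called in either direction) and the median log2 fold change was 0.22, beside 0.07. Of the next 13 (4275 to 6341 nucleotides), 5 were called (38.5%, beside 7.02%) and the median was 0.16, beside -0.01. Of the 13 longest (6493 to 15433 nucleotides), only *Mad2l1* was called (7.69%, beside 13.2%) and the median was 0.13, beside -0.08. In each range the median of these genes lay above that of all genes of the same length. *Mki67*, *Cenpe* and *Cenpf*, the 3 genes with a lower mean, were all among the 13 longest. When each library was corrected for the relation to length, 9 of the 39 were called, all higher, beside 2.09% of all genes called higher. These were *Cdk1*, *Cdca3*, *Cdca8*, *Mad2l1*, *Nuf2*, *Cenpa*, *Kif2c*, *Nusap1* and *Anln*, of which 8 had been called without the correction. *Cdc20*, *Ube2c*, *Ccnb1*, *Ccnb2*, *Birc5* and *Spc25* were no longer called, with adjusted p between 0.0543 for *Cdc20* and 0.176 for *Ccnb2*. The median log2 fold change was then 0.18, and rho was 0.06. The correction would also remove a change of transcript levels that truly followed length.

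**Figure D4:**
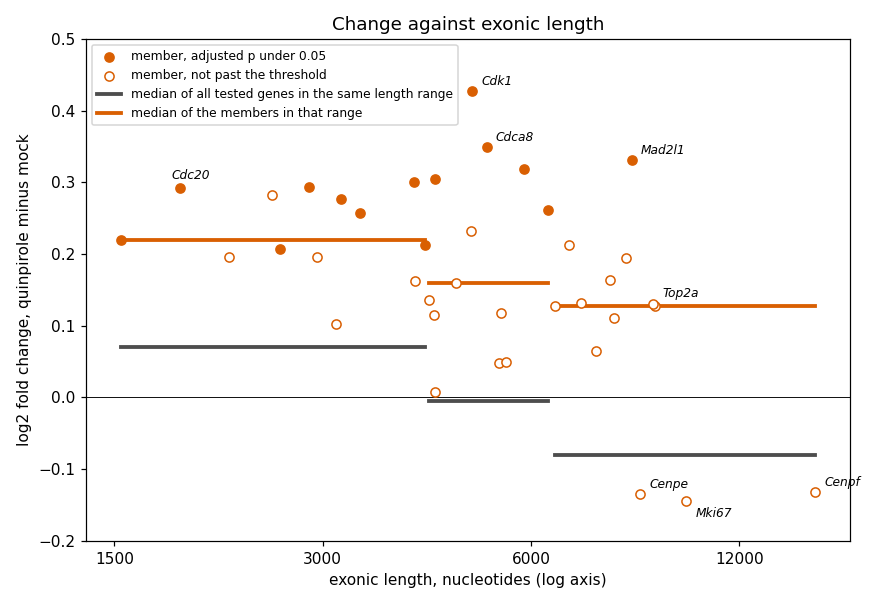
log2 fold change, quinpirole minus mock, against exonic length in nucleotides (log axis) for the 39 genes (filled for an adjusted p under 0.05), with the median of the genes and of all tested genes in 3 ranges of length. The medians of the 39 genes, 0.22, 0.16 and 0.13, lie above those of all genes, 0.07, -0.01 and -0.08.

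Other genes of division were read from lists beside the 39. Of all 12255 genes tested, 3839 had an unadjusted p under 0.05. Of 50 tested genes of the same cycle-regulated class, such as condensins, further kinesins and CENP proteins, 7 rose (14.0%, beside 5.74% of all genes) and none was called lower, with 19 at an unadjusted p under 0.05 and a median log2 fold change of 0.13. Those with the smallest p were *Pbk*, a mitotic kinase gene (19.9 compared with 24.6 FPKM as group means, adjusted p = 0.0225), *Cenpn* (4.35 compared with 5.85, adjusted p = 0.0251), *Ckap2* (22.4 compared with 26.3, adjusted p = 0.0257) and *Kif22* (14.4 compared with 17.3, adjusted p = 0.0262). After the length correction 3 genes of this list were called higher, and *Pbk* (adjusted p = 0.0875) and *Ckap2* (adjusted p = 0.0503) were not among them. Of 30 genes of DNA replication and licensing, 5 rose (16.7%; 6 after the length correction) and none was called lower, with 15 at an unadjusted p under 0.05 and a median of 0.14. *Rrm2*, which encodes the regulated subunit of ribonucleotide reductase, was at 30.4 compared with 38.1 FPKM (adjusted p = 0.0225), the helicase genes *Mcm7* at 25.8 compared with 30.8 FPKM (adjusted p = 0.0251) and *Mcm2* at 22.4 compared with 25.8 FPKM (adjusted p = 0.0322), and the thymidylate synthase gene *Tyms* at 4.14 compared with 5.00 FPKM (adjusted p = 0.0446).

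Genes whose products serve mitosis but are made throughout the cycle moved in both directions. Of 45 of them, 4 rose (8.89%, beside 5.74% of all genes) and 2 fell, and their median log2 fold change was 0.02, as over all genes. After the length correction the median was 0.061, beside 0.005 over all genes. The mean was then higher for 30 of the 45, beside 6297 of all 12223 genes. The 4 were *Ran*, the GTPase gene (105 compared with 123 FPKM, adjusted p = 0.0247), *Ppp1cc*, a phosphatase gene (63.6 compared with 70.7, adjusted p = 0.034), *Wee1*, whose kinase inhibits CDK1 (14.6 compared with 17.1, adjusted p = 0.0348), and *Anapc15*, a gene of the anaphase-promoting complex (10.1 compared with 12.7, adjusted p = 0.0464). The 2 that fell were *Dync1h1*, which encodes the heavy chain of dynein (63.5 compared with 40.7 FPKM, log2 fold change -0.63, adjusted p = 0.0225), and *Numa1*, whose protein focuses the spindle poles (37.9 compared with 29.5 FPKM, log2 fold change -0.35, adjusted p = 0.0225). After the length correction *Dync1h1*, *Numa1* and *Ran* were still called (adjusted p = 0.027, 0.0308 and 0.0419), whereas *Ppp1cc*, *Wee1* and *Anapc15* were not (adjusted p = 0.0885, 0.0766 and 0.0604). Of 19 genes of the DREAM complex, NF-Y and the inhibitors that hold mitotic genes silent, 2 rose (10.5%, beside 5.74% of all genes) and none was called lower. The 2 were *Nfyc* (18.6 compared with 22.4 FPKM, adjusted p = 0.0385) and the CDK inhibitor gene *Cdkn2c* (26.8 compared with 32.2 FPKM, adjusted p = 0.0412). An unadjusted p under 0.05 was found for 5 of the 19, beside 3839 of all 12255 genes. Neither *Nfyc* (adjusted p = 0.114) nor *Cdkn2c* (adjusted p = 0.104) was called after the length correction. The 1 gene of this list then called was *Lin9*, of the DREAM complex (log2 fold change 0.29, adjusted p = 0.0475, and 0.0553 without the correction). The calls of these lists also depended on single libraries. With all 6 libraries, 20 genes of the 4 lists were called, 14 without mock library 3 and 3 without quinpirole library 3. Limma called 0 without mock library 1, mock library 2, quinpirole library 1 or quinpirole library 2. In these fits 48, 40, 49 and 46 of these genes, respectively, had an unadjusted p under 0.05. Over all genes it was 3051 of 12247, 2883 of 12253, 3378 of 12265 and 2966 of 12265. The 4 lists held 50, 30, 45 and 19 genes tested with all libraries.

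**Figure D5:**
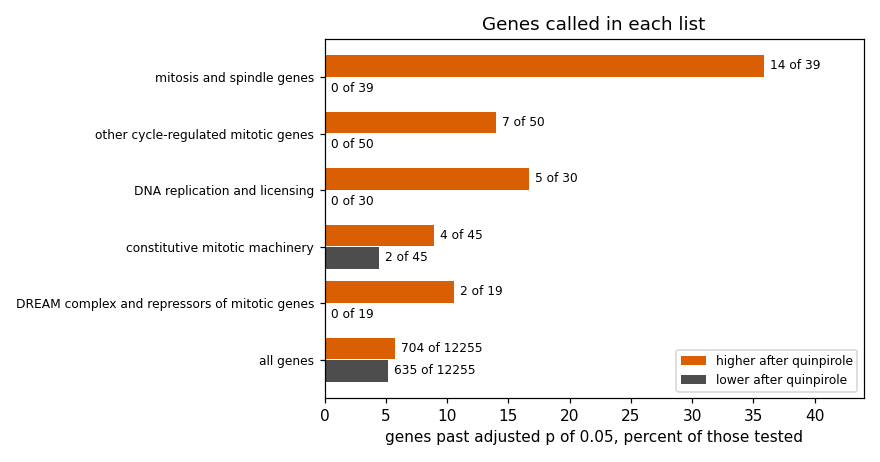
Percentage of tested genes past an adjusted p of 0.05 (limma), higher or lower after quinpirole, for the 39 mitosis and spindle genes, the 4 other lists of division genes and all genes, with counts beside the bars. The mitosis and spindle genes have 35.9% higher and none lower, whereas all genes have 5.74% higher.

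The preparation was read from marker genes. Astrocyte markers were abundant, such as *Gfap* at 482 to 560 FPKM and *Aldh1l1* at 165 to 182 FPKM, but the glutamate transporter gene *Slc1a2*, a defining astrocyte gene of the adult brain, was at only 8.55, 8.29 and 7.47 FPKM in the mock libraries and 5.94, 5.15 and 6.37 FPKM in the quinpirole libraries (adjusted p = 0.0297, and 0.0573 after the length correction). Summed over 8 astrocyte markers, the level was 1430 to 1590 FPKM in the mock and 1430 to 1460 FPKM in the quinpirole libraries, and *Slc1a2* and *Atp1b2* were called lower. The 7 markers of neural stem and progenitor cells summed to 451 to 463 compared with 410 to 425 FPKM, mostly from *Nes* and *Sox2*, with *Nes* called lower (315 compared with 277 FPKM as group means, adjusted p = 0.0369) and *Eomes* and *Thbs4* below 0.25 FPKM. Levels of the progenitor markers as a sum were therefore lower in the libraries in which the mitotic genes were higher. Their part in the result was not tested.

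Markers of other cells moved in either direction. The ratio of their summed levels, quinpirole to mock, ranged from 0.811 for endothelial and mural markers to 1.16 for neuroblast and neuronal markers. For the 39 mitotic genes it was 1.16. These sums are not corrected for the FPKM summed over all genes, which was also higher in the quinpirole libraries (425244 to 437164) than in the mock libraries (401769 to 413730). The 6 microglial and macrophage markers, led by *Csf1r* and *Cx3cr1*, summed to 129 to 138 FPKM in the mock and 123 to 129 FPKM in the quinpirole libraries, and none was called (4 at an unadjusted p under 0.05, beside 3839 of all 12255 genes). Endothelial and mural markers (6 genes) summed to 27.1 to 29.6 compared with 22.6 to 23.7 FPKM, nearly all from the pericyte gene *Pdgfrb*. *Pdgfrb* was called lower (adjusted p = 0.0227, and 0.0308 after the length correction), while *Pecam1* and *Tek* were below 0.12 FPKM. Markers of oligodendrocyte precursors (5 genes) summed to 307 to 316 compared with 330 to 352 FPKM through *Olig1*, which rose, and *Olig2*, while *Pdgfra* and *Gpr17* stayed below 0.72 FPKM. After the length correction *Olig1* was no longer called (log2 fold change 0.06, adjusted p = 0.389) and *Olig2* was at 0.00. Neuroblast markers (6 genes) summed to 59.2 to 61.9 compared with 67.7 to 73.0 FPKM, nearly all from *Stmn2*. *Stmn2* rose (adjusted p = 0.0322, and 0.0454 after the length correction), while *Dcx* was below 0.06 FPKM. The 6 neuronal markers summed to 17.6 to 19.7 compared with 20.5 to 23.6 FPKM, nearly all from *Tubb3*, while *Rbfox3* and *Snap25* were below 0.08 FPKM. Oligodendrocyte markers (5 genes, mostly *Cnp*, with *Mog* below 0.07 FPKM) and ependymal markers (5 genes, mostly *Foxj1*) overlapped between the groups, at 156 to 176 compared with 162 to 173 FPKM and at 138 to 151 compared with 140 to 147 FPKM, and none was called (0 and 1 at an unadjusted p under 0.05). The part of these cells in the change of the mitotic genes was not tested.

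The files hold no read counts, and the steps between low FPKM values gave an estimated depth of 22300000 to 27600000 fragments per library. With the exonic length of each gene, this came to between 347 fragments for *Ttk* and 7520 for *Top2a* in a single library. These numbers may be too high, because exonic length joins the exons of all transcripts of a gene. For *Top2a* it was 9013 nucleotides, compared with 5221 for the longest transcript. FPKM values summed to 401769 to 413730 per library in the mock group and to 425244 to 437164 in the quinpirole group. Some values may include reads of other loci. *Ccnb1* shared 42.1% of the 50-base words of its longest transcript with other genes, mostly the pseudogene *Ccnb1-ps*, *Cdc20* shared 11.4% and *Plk1* 6.8%, and the other 36 genes shared at most 2.7%. Exons of *Kif20a* overlapped those of *Cdc23* on the opposite strand over 29.3% of their length, those of *Ube2c* overlapped *Tnnc2* over 22.8% and those of *Kif4* overlapped *Pdzd11* over 15.1%. *Ccna2* (12.5%, *Exosc9*) and *Prc1* (11.1%, *Rccd1*) overlapped less, and because the library kit named does not mark strand, reads of these partners cannot be told apart.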

How the data were processed

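Poly(A) RNA from ACSA-2-selected astrocytes was sequenced in 3 mock and 3 quinpirole libraries, with a kit that does not mark strand. The authors trimmed the paired-end reads, mapped them with TopHat2 to GRCm38 (both per the submitters' processing notes), kept reads with at most 1 mismatch and deposited FPKM values for each gene in each library. The program that computed FPKM and the versions are not given in the sources used here. Groups came from the treatment labels. Gene identifiers were matched to symbols and exonic lengths through GENCODE M21 on GRCm38 (17090 of 17193), and promoter windows came from RefSeq on GRCm38.p6.

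Log2(FPKM + 1) was compared between the groups by the two-sided moderated test of limma 3.58.1 (R 4.3.3), in which eBayes was given a mean-variance trend. Genes whose mean reached 1 FPKM were tested, with Benjamini-Hochberg adjustment over all of them and a threshold of 0.05. The added 1 understates fold changes of low genes. On simulated data with 12255 genes in 3 against 3 libraries, 200 genes were changed by 1 on the log2 scale. Of these 200, 189 were recovered, and 13 unchanged genes were called. The largest change among the 39 genes was 0.43, so the simulation does not show how often changes of their size would be missed. Depth was estimated from 642 genes with 1 transcript of at least 2000 nucleotides, whose low values were whole fragments to within 0.1 in 58.0% to 66.3% of cases (20% by chance), and the estimate covers counting error only. For the length correction, a loess (span 0.3) of each library's deviation on log2 exonic length was subtracted. Exonic length, the joined exons of all transcripts of a gene, stood in for transcript length throughout. Alternatives were another pseudocount, other filters, quantile normalization, median ratio scaling, eBayes without trend, the length correction, a replicate block and the omission of each library. Values were given for every gene of the list with a mean of at least 1 FPKM, which was all 39, and for at most 4 called genes per direction of each other list. The genes and lists were chosen with earlier results of these data known. Tables were made in Python 3.11.15 (pandas 2.3.3, numpy 2.4.6, scipy 1.17.1) and plots with matplotlib 3.10.9.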

Additional observations from a re-analysis of the deposited data

How the results depend on the processing

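Most of the 39 genes had a higher mean after quinpirole under every alternative (34 of 35 tested at a minimum of 5 FPKM and 35 or 36 of 39 elsewhere), but the number called varied. For several alternatives the direction was fixed in advance. The filters, eBayes without trend and the replicate block leave the log2 fold change of each gene as it was. The fits without 1 library share their libraries with the main fit. Their median log2 fold change ranged from 0.151 (without mock library 3) to 0.215 (without mock library 1) when single libraries were left out, and their summed FPKM had a ratio of 1.15 between the groups both after median ratio scaling and without *Cdc20*, the gene with the highest mean. With single libraries left out, 0 to 11 of the 39, 0 to 14 genes of the 4 other lists and 3 to 1182 of all genes were called. A pseudocount of 0.1 and median ratio scaling left 14 of the 39 called, a minimum mean of 5 FPKM gave 15 of 35, eBayes without trend 12, and quantile normalization and no filter 11 each. Over all genes, 1339 calls became 633 without a filter, 783 after quantile normalization, 714 without trend and 509 after the length correction, and the higher share of the calls moved from 52.6% to 36.1% after quantile normalization and to 41.0% without trend. The other lists had 13 calls instead of 20 without a filter and 13 after the length correction, which left 9 of the 39. Deviations of same-numbered libraries from their group means correlated at 0.026, -0.0657 and -0.103 (numbers 1 to 3). Those of the other pairs correlated at -0.097 to 0.155. With group means of only 3 libraries, these values cannot decide whether the replicate numbers pair the libraries. With a replicate block, limma called 2 genes in all and 0 of the 39 and of the other lists. An unadjusted p under 0.05 was found for 23 of the 39 and 50 of the other lists, beside 3308 of all 12255 genes. The block takes degrees of freedom from 6 libraries. With the block and the length correction together, an alternative added after the data were seen, limma called 0 genes in all, in the 39 and in the other lists, with 2723, 25 and 45 at an unadjusted p under 0.05. *Bub1* and *Cenpf* changed sign without being called under any alternative. *Bub1* was at -0.007 (log2 fold change) after the length correction with or without the block, and between -0.045 (without quinpirole library 2) and 0.102 (without quinpirole library 3) when libraries were left out. *Cenpf* was at 0.058 after the length correction with or without the block. Of 820 values of single named genes under these alternatives, 563 held both sign and call, 248 were no longer called, 2 became called and 7 changed sign. Only genes called in the main fit could lose a call. The 563 include values of genes that were not called there, such as *Kif4*, so their share of 820 does not measure how stable the calls were. The cause of the changes under the alternatives was not tested.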

Other observations

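The genes given here were chosen after their values were seen. *Fen1*, which encodes the flap endonuclease of DNA replication, was at 4.30, 3.40 and 13.0 FPKM in mock libraries 1 to 3 and at 14.0, 13.5 and 13.3 FPKM in quinpirole libraries 1 to 3 (adjusted p = 0.103), so that mock library 3 was close to the quinpirole libraries. *Rcc1*, which encodes the exchange factor for Ran on chromatin, was at 8.11, 12.3 and 13.3 FPKM compared with 13.4, 14.0 and 15.1 FPKM (adjusted p = 0.188), with mock library 1 apart from the other 5. *Foxm1* and *Mybl2*, which encode activators of mitotic transcription, were at 10.9 to 12.8 and 3.34 to 4.32 FPKM in the mock libraries and at 10.2 to 12.5 and 3.58 to 4.48 FPKM in the quinpirole libraries (adjusted p = 0.748 and 0.662). *Cdkn1a*, which encodes the CDK inhibitor p21, was at 172 to 176 compared with 178 to 188 FPKM (adjusted p = 0.16), above the level of each of the 39 mitotic genes in every library.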
